A study of Ovis aries with 2 samples.

Results

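The basal layer keratins described here are 4 genes: KRT5, KRT14, KRT15 and KRT17. They were chosen by name, as 4 of the 18161 genes in a table of single skin cells from Hu sheep lambs. KRT5 and KRT17 are listed under their own symbols, whereas KRT14 is listed as LOC101118459 and KRT15 as LOC101117682, symbols that RefSeq (ARS-UI_Ramb_v3.0) pairs with KRT14 and KRT15. The table holds 1 library from the skin of straight wool lambs (6452 cells) and 1 from the skin of curly wool lambs, called waved wool in the labels (7585 cells). Each library was made from the pooled skin of 3 lambs, and the age given for both groups is day 3. Isolated hair follicles and whole skin were dissociated separately and then mixed, so the proportion of follicle cells in a library partly reflects the mixing. The study asked which cells and genes differ between the 2 wool types.

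Keratins build the intermediate filaments of epithelial cells, and each filament pairs a type II keratin with a type I keratin. KRT5 is the type II partner and KRT14, KRT15 and KRT17 are type I keratins. KRT5 and KRT14 form the filament network of the basal layer, where keratinocytes divide, and they give way to KRT1 and KRT10 as cells move up and differentiate. KRT15 is known from basal cells and from the stem cells of the hair follicle bulge, and KRT17 from the follicle's outer root sheath, other skin appendages and stressed epidermis. In the RefSeq annotation KRT14, KRT15 and KRT17 lie in the same cluster of type I keratin genes on chromosome 11, with LOC101108147 listed between KRT14 and KRT17, and KRT5 lies beside KRT6A among the type II genes. KRT14 and KRT17 are close relatives, and KRT14 is recorded as an older name of KRT17 in sheep, so reads that match both genes make the split between these 2 rows less certain than each row's counting error.

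A level below is the number of unique molecular identifiers (UMIs, each marking 1 captured RNA molecule) of a gene per 1000000 UMIs of the same cells (CPM). UMIs are taken at the 3′ end of a transcript and are not divided by length, so levels of different genes are compared as molecules captured. The straight library held 57956122 UMIs (median 7373.5 per cell) and the curly library 77634565 (median 7495 per cell). The libraries shared 70 cell barcodes. With 1 pooled library per wool type no difference between wool types could be tested, and every interval given (95%, exact) covers counting error only. Cells were clustered without the 4 keratins, and the clusters were named from marker lists that do not hold them. The keratins thus had no direct part in forming or naming the clusters. Values pooled by name still depend on which clusters were given that name.

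The 4 keratins were abundant messages in both libraries. Together they made up 2.11% of all UMIs in the straight library and 1.87% in the curly library. KRT5 stood at 6683 CPM in the straight library and 5480 in the curly library. KRT14 stood at 6157 and 7202, KRT17 at 6499 and 4890, and KRT15, the least abundant, at 1780 and 1144. Over all cells, KRT14 was therefore higher in the curly library and the other 3 keratins were lower there. The log2 ratio of curly over straight was -0.29 for KRT5, 0.23 for KRT14, -0.64 for KRT15 and -0.41 for KRT17, each less than 2-fold (10.2% of the 13196 genes with at least 100 UMIs differed by 2-fold or more in either direction). The median log2 ratio over those genes was -0.18. Without the cells whose barcodes occur in both libraries the ratios were -0.30, 0.22, -0.65 and -0.42.

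These totals depended on which cells each library contained and on how many UMIs those cells gave. Cluster 10, led by KRT6A, held 2.77% of the straight cells and 4.96% of the curly cells, and 3.16% and 8.35% of all UMIs. It gave 16.3% of all KRT14 UMIs in the straight library and 40.8% in the curly library. Within cluster 10 KRT14 was at 31651 and 35225 CPM. In cluster 16 KRT14 was at 8684 and 25695, so leaving that cluster out also removes a difference within a cluster. With clusters 10 and 16 left out, a choice made after the values were seen, the KRT14 log2 ratio turned from 0.23 to -0.41, and that of KRT5 went from -0.29 to -0.68. KRT17 depended on another cluster: the KRT79-rich suprabasal cluster 4 gave 44.9% of its UMIs in the straight library and 31.0% in the curly library. The values that follow are therefore given cluster by cluster.

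The cells fell into 22 clusters. The keratinocyte clusters were cluster 2, which scored as basal interfollicular epidermis (basal IFE-like, 804 straight and 569 curly cells), and clusters 6 and 8, which scored as hair follicle stem cells (HFSC-like). Clusters 4 and 5 scored as suprabasal epidermis (suprabasal IFE-like), and cluster 14 held dividing epidermal cells (cycling-like). Cluster 2 was led by DLK2, SFTPC and POSTN, cluster 8 by LGR5 and PPP2R2B, cluster 6 by TFPI2 and PDPN, cluster 4 by KRT79 and CST6 among the genes with symbols, and cluster 5 by SPINK7, LYPD2 and CNFN. Basal and stem cell scores lay close together: 1.14 against 0.79 in cluster 2, 1.05 against 0.86 in cluster 6 and 1.39 against 1.27 in cluster 8, so these 3 names are weak. Clusters 10 and 16 stayed unnamed, since fewer than 3 markers of their best-scoring list were detected. That list was the companion layer of the follicle, which scored 2.65 in cluster 10 and 1.98 in cluster 16. Only 3 of its 5 markers were found by symbol among the measured genes, so the rule needed all of these. A marker listed under a LOC symbol would not have been found. Cluster 16 was led by the protease genes KLK6 and KLK10 and by CDSN, which encodes an adhesion protein of cornified cells. Cluster 3, also unnamed, held shallow cells (median 688 UMIs per cell in the straight library and 752.5 in the curly library).

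KRT5, the shared type II partner, was high in the keratinocyte clusters of both libraries. Its highest level was in cluster 10, at 18980 CPM in the straight library and 19245 in the curly library. Next came the dividing cells of cluster 14 (14368 and 17107), cluster 16 (14032 and 14846) and basal IFE-like cluster 2 (11863 and 14272). The stem-like clusters were close behind, cluster 8 at 11190 and 10083 and cluster 6 at 10164 and 10951. In both libraries every one of these 6 clusters lay above 10000. The suprabasal clusters 5 and 4 were at 11556 and 12795 in the straight library and at 6785 and 4921 in the curly library. The straight suprabasal cells thus reached the range of the basal cells, and the curly ones did not. Myoepithelial-like cluster 13, with the contractile genes ACTG2 and CNN1, was lower at 3781 and 4030.

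**Figure D1:**
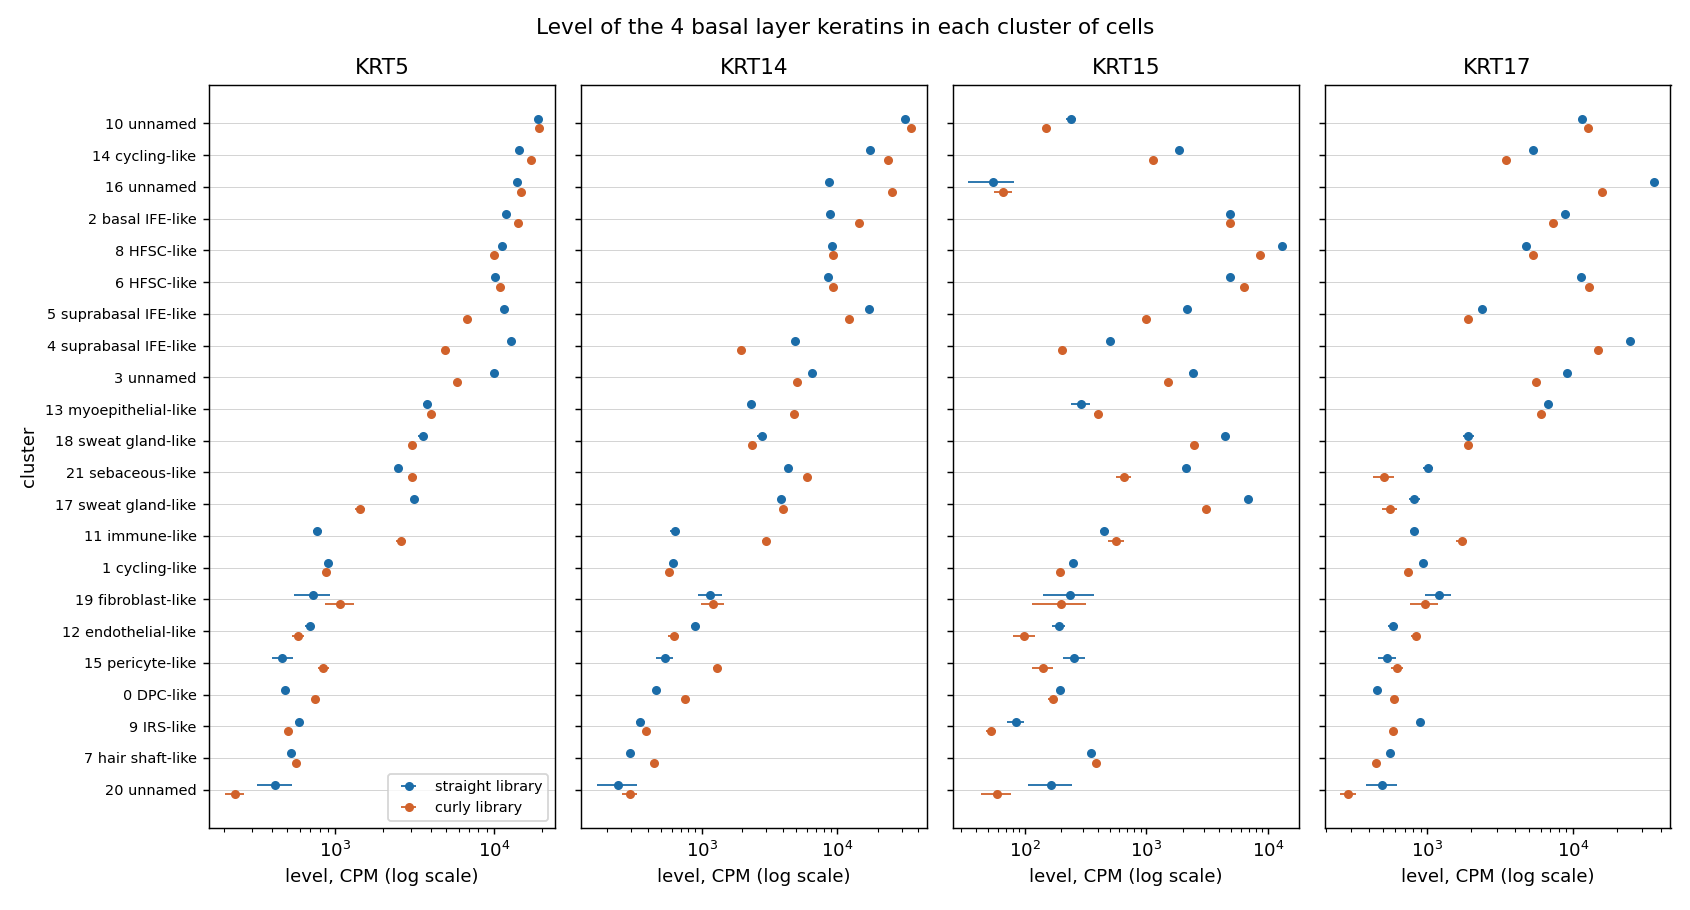
CPM of each keratin (log scale) in the 22 clusters, ordered by the KRT5 level, with the straight library in blue and the curly library in orange and 95% counting intervals as bars. KRT5 and KRT14 peak in cluster 10, KRT15 in cluster 8 and KRT17 in clusters 16 and 4, where KRT15 is near its lowest in cluster 16.

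KRT14, the usual partner of KRT5 in basal cells, spread over a wider range. It reached 31651 CPM in straight cells of cluster 10 and 35225 in curly cells. Cluster 14 followed at 17618 and 23898. The FLG- and CNFN-expressing suprabasal cluster 5 stood at 17304 and 12173, whereas the other suprabasal cluster, 4, stood at 4914 and 1960. Basal IFE-like cluster 2 was at 8839 in the straight library and 14480 in the curly library. Cluster 8 was nearly the same in both (9269 and 9274), and so was cluster 6 (8516 and 9418). The geometric mean of the 2 libraries differed 125-fold between the highest and the lowest cluster for KRT14, against 61.1-fold for KRT5.

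KRT15 was concentrated in the stem-like, basal and sweat gland-like clusters. The LGR5-led cluster 8 was highest at 13070 CPM in straight cells and 8614 in curly cells. By the geometric mean of the libraries, cluster 6 (4915 and 6369) and basal IFE-like cluster 2 (4903 and 4839) came next. The sweat gland-like cluster 17, led by TFF3 and SCGB2A2, reached 6815 in the straight library, above clusters 6 and 2, and 3074 in the curly library, and the KRT8- and KRT19-rich cluster 18 reached 4454 and 2489. At the other end, cluster 10 held 243 and 151 and cluster 16 held 54.6 and 66.8, although both were rich in the other 3 keratins. Both values of cluster 10 were inside the range of 99.5 to 566 found in the non-epithelial clusters. The fold range of KRT15 over the clusters, 176, was the widest of the 4.

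Among the 22 clusters KRT17 peaked in cluster 16, with KRT15 at 54.6 and 66.8 CPM, and in cluster 4, with KRT15 at 501 and 203. Cluster 16 had 35893 CPM in straight cells and 15765 in curly cells, and suprabasal cluster 4 had 24766 and 14899. Cluster 10 (11487 and 12711) and cluster 6 (11288 and 12828) were alike in both libraries. Basal IFE-like cluster 2 stood at 8784 and 7266 and the LGR5-led cluster 8 at 4735 and 5336. Suprabasal cluster 5, where KRT14 was abundant, held 2374 and 1889. KRT17 was also the highest of the type I members in myoepithelial-like cluster 13, at 6689 and 6064. In the order of clusters by the geometric mean of the libraries, the ranges of neighbouring clusters overlapped in 15 of 21 neighbour pairs for KRT5 and for KRT17 and in 16 of 21 for KRT14 and for KRT15, so most adjacent ranks are not separated.

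All 4 keratins were also counted in cells that should not make them. In the 5 clusters scored as dermal papilla, fibroblast, endothelial, pericyte and immune cells, KRT5 ranged from 467 to 773 CPM in the straight library and from 582 to 2607 in the curly library. The upper end in the curly library came from the immune-like cluster 11, which held 91 curly cells. Without that cluster the highest curly values were 1074 for KRT5, 1295 for KRT14, 198 for KRT15 and 957 for KRT17. Hair shaft-like cluster 7 and inner root sheath-like (IRS-like) cluster 9 lay in or below the same ranges for KRT5 and KRT14, with KRT5 at 530 and 564 in cluster 7 and 596 and 505 in cluster 9. The part of free RNA in these low values was not tested.

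The share of KRT5 among the 4 keratins ran from 15.8% to 37.5% over the 22 clusters and both libraries. At the finer division it ran from 10.1% to 42.1%. Such a share has fixed limits, so its range cannot be set against the fold ranges of the levels. Here and below, type I UMIs are those of KRT14, KRT15 and KRT17 only. Other keratins, such as KRT1 (236705 UMIs), KRT6A (96219) and KRT10 (521318), are left out. The share is therefore not the whole balance of type II to type I keratins. KRT5 was 31.6% of the UMIs of the 4 keratins in the straight library and 29.3% in the curly library. Over the named epithelial-like cells it was 32.0% (31.9 to 32.0) and 30.0% (29.9 to 30.1). In dividing cluster 14 it was 36.6% and 37.5%, in basal IFE-like cluster 2 34.5% and 34.9%, in cluster 8 29.2% and 30.3%, in cluster 10 30.4% and 28.6% and in cluster 4 29.8% and 22.4%. Sweat gland-like cluster 17 was lower, at 21.5% and 15.8%. In single cells with at least 50 type I UMIs, the KRT5 share had a median of 30.2% with quartiles of 23.1% and 36.6% in the straight library, and a median of 29.4% with quartiles of 22.5% and 35.4% in the curly library. The 5th and 95th percentiles were 7.41% and 45.4% in the straight library and 3.46% and 45.3% in the curly library.

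Which of the 3 type I members accompanied KRT5 also changed between clusters. Percentages below are of the summed UMIs of KRT14, KRT15 and KRT17. KRT14 made up 73.0% of type I UMIs in straight cells of cluster 10 and 73.3% in curly cells, and 79.2% and 80.9% in suprabasal cluster 5. KRT17 made up 82.1% and 87.3% in suprabasal cluster 4. Among these members KRT14 thus led in cluster 5 and KRT17 in cluster 4, in each library. KRT10, another type I keratin and one of the suprabasal markers, was not counted in these shares. KRT15 made up 48.3% and 37.1% in the LGR5-led cluster 8 and 59.2% and 40.4% in sweat gland-like cluster 17. In basal IFE-like cluster 2 the split was 39.2% KRT14, 21.8% KRT15 and 39.0% KRT17 in the straight library, and 54.5%, 18.2% and 27.3% in the curly library. The summed UMIs of cluster 16 were 80.4% KRT17 in the straight library but 61.9% KRT14 in the curly library, on 38 and 189 cells, although the median curly cell there had 71.6% KRT17.

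**Figure D2:**
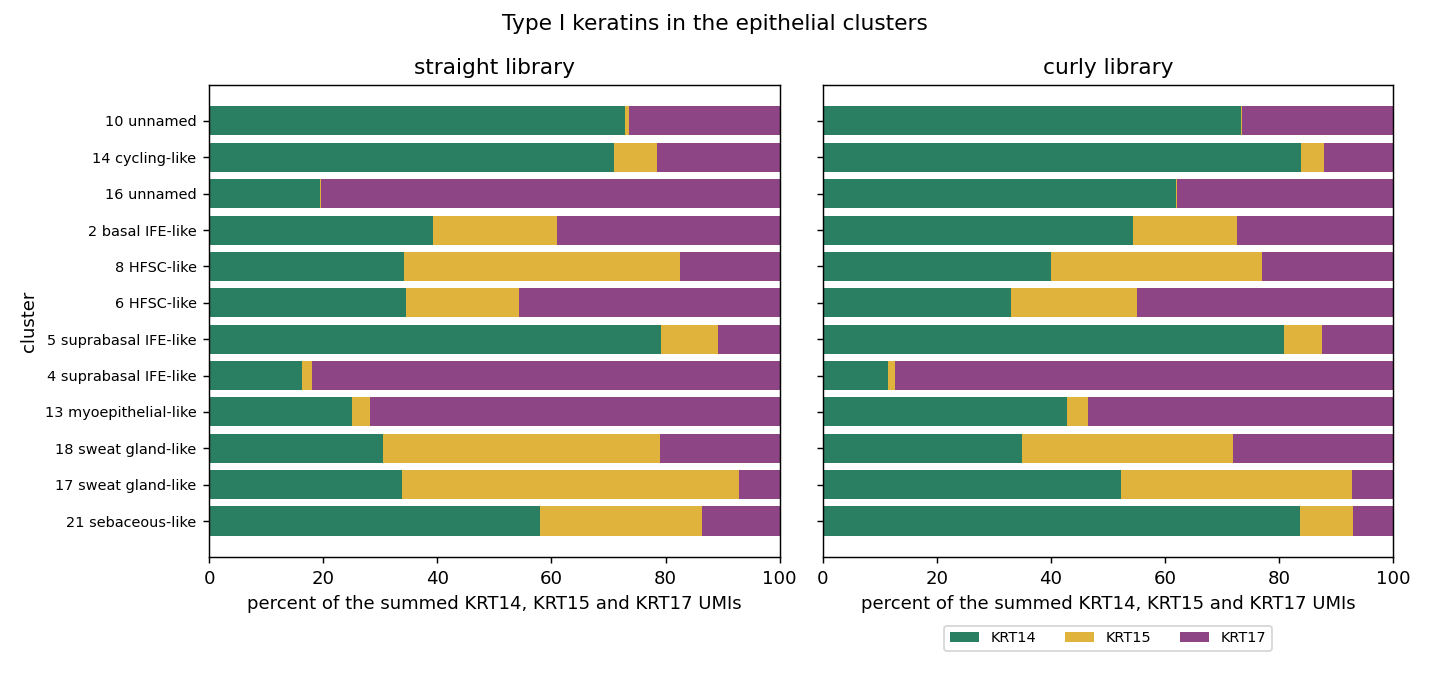
Stacked bars give the percent of KRT14 (green), KRT15 (yellow) and KRT17 (purple) in the summed UMIs of the 3 type I keratins for 12 epithelial clusters, straight library on the left and curly library on the right. Cluster 5 is mostly KRT14 and cluster 4 mostly KRT17 in both libraries, and the summed UMIs of cluster 16 are 80.4% KRT17 in the straight and 61.9% KRT14 in the curly library, where the median cell has 71.6% KRT17.

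The same split was seen within single cells. Of the 2757 straight cells with at least 50 type I UMIs, 505 (18.3%, 16.9 to 19.8) had at least 90% of them from KRT17, 275 (9.97%, 8.88 to 11.2) from KRT14 and 16 (0.58%, 0.33 to 0.94) from KRT15. Of the 3093 curly cells the numbers were 505 (16.3%, 15.0 to 17.7), 367 (11.9%, 10.7 to 13.1) and 4 (0.13%, 0.035 to 0.33). Cells with a mix of KRT14, KRT15 and KRT17 were thus the majority, 71.1% and 71.7%. The KRT17-dominated cells lay mostly in suprabasal cluster 4, which held 51.5% of them in the straight library and 62.4% in the curly library. The KRT14-dominated cells lay most often in suprabasal cluster 5, 60.7% and 39.5%. Of the KRT15-dominated straight cells, 13 of 16 were in sweat gland-like cluster 17.

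Clusters differed in how uniform their cells were. In the LGR5-led cluster 8 the KRT15 share per cell had a median of 47.2% and quartiles of 37.8% and 58.9% in the straight library, and a median of 36.6% and quartiles of 26.8% and 47.3% in the curly library. In cluster 4 the KRT17 share had a median of 95.3% in the straight library, with a lower quartile of 52.1%, and a median of 96.4% in the curly library, with a lower quartile of 87.7%. Basal IFE-like cluster 2 was more mixed: the KRT17 share had a median of 18.9% in straight cells but a 95th percentile of 99.3%, and a median of 11.2% in curly cells with a 95th percentile of 97.9%. A small set of nearly pure KRT17 cells therefore sat among basal cells that were mostly KRT14 and KRT15. In curly cells of cluster 16 the KRT17 share ran from a lower quartile of 5.6% to an upper quartile of 88.8%, around a median of 71.6%.

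**Figure D3:**
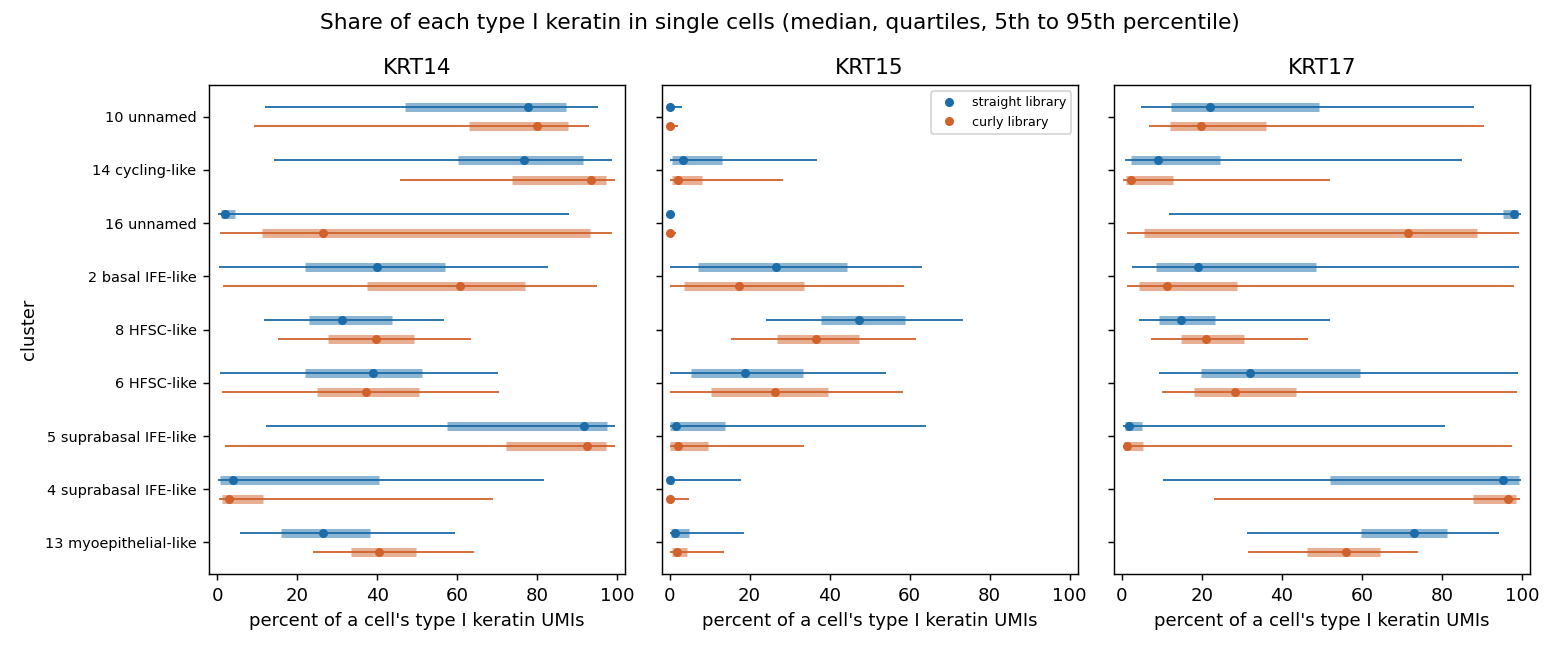
For cells with at least 50 UMIs of KRT14, KRT15 and KRT17 together, points give the median share of each in that sum. Thick bars give the quartiles and thin lines the 5th to 95th percentiles. The straight library is in blue and the curly library in orange. KRT17 medians are 95.3% and 96.4% in cluster 4 and 1.8% and 1.3% in cluster 5.

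Detection of the keratins together followed these levels. After each cell was thinned to 2000 UMIs (leaving out 16.1% of straight and 20.2% of curly cells as too shallow), KRT5 and KRT14 were both detected in 100% of cells of the LGR5-led cluster 8 in each library, and all 4 keratins in 97.8% and 98.5%. In cluster 10 KRT5 and KRT14 were both detected in 98.5% and 98.6% of cells but all 4 in 16.9% and 17.9%. Basal IFE-like cluster 2 had all 4 in 72.9% and 73.7% of cells and cluster 6 in 78.6% and 86.7%. In the suprabasal clusters the figures were 20.4% and 10.0% (cluster 4) and 26.2% and 15.9% (cluster 5). The background for such shares was high for pairs: in dermal papilla-like cells of the same thinned depth KRT5 and KRT14 were both detected in 18.6% and 25.7% of cells, and all 4 in 3.04% and 3.48%. The shares with all 4 keratins in cluster 10 lay near those of KRT15 alone there, 16.9% and 17.9%. KRT15 was detected in 15.9% and 10.3% of dermal papilla-like cells and in 22.1% and 17.5% of endothelial-like cells. The median depths before thinning were 7586 and 18301 UMIs in cluster 10, 6085 and 4513 in dermal papilla-like cells and 5306 and 3827 in endothelial-like cells. The 95% exact binomial interval of cluster 10 overlapped those of both cell types in the straight library, and in the curly library that of endothelial-like cells but not that of dermal papilla-like cells. The part of free RNA in these shares was not tested.

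A finer division into 29 clusters separated keratin states that the 22 clusters pooled. Basal IFE-like cluster 2 divided into a main group of 1140 cells (83.0%), a group of 176 cells (12.8%) and a group of 54. In the finer cluster that took the main group, KRT17 stood at 4884 and 4400 CPM, KRT14 at 10044 and 16318 and KRT15 at 5325 and 4855. The finer cluster that took the 176 cells, together with 70 cells of cluster 4, scored as outer root sheath (ORS-like) and was led by PTHLH, which encodes parathyroid hormone-like hormone. KRT17 there was 44263 in straight cells and 40866 in curly cells, with KRT14 at 3995 and 2371 and KRT5 at 27786 and 22946. KRT15 in that group was 1719 and 2765, so this KRT17 peak was not in cells low in KRT15. KRT5 in that group was above its level in each of the 22 original clusters. KRT17 was itself among the 10 leading genes of that group, although it had no part in the clustering. KRT17 levels of the ORS-like group were alike in the 2 libraries, unlike those of cluster 16.

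Stem-like cluster 6 divided nearly evenly, into finer clusters holding 497 and 421 of its cells. The larger, led by TFPI2 and unnamed, had KRT17 at 14012 and 18899 and KRT15 at 2594 and 2786 CPM. The smaller, HFSC-like, had KRT17 at 6185 and 6773 and KRT15 at 9215 and 9509. The KRT15-high group lay close to the LGR5-led cluster in its KRT15 level, and the other group did not. Suprabasal cluster 5 divided into 719 cells with KRT1 and KRT10 among their leading genes and 239 cells led by SPINK7 and FLG, a gene of the cornified layer. In the first group KRT14 was 21639 and 16781 and KRT5 14434 and 9347. In the second KRT14 was 2353 and 1129 and KRT5 1635 and 649, so the basal pair was still high in the first suprabasal group and low in the second. Names in this paragraph and the one before come from the same markers at a resolution of 0.8 instead of 0.3.

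**Figure D4:**
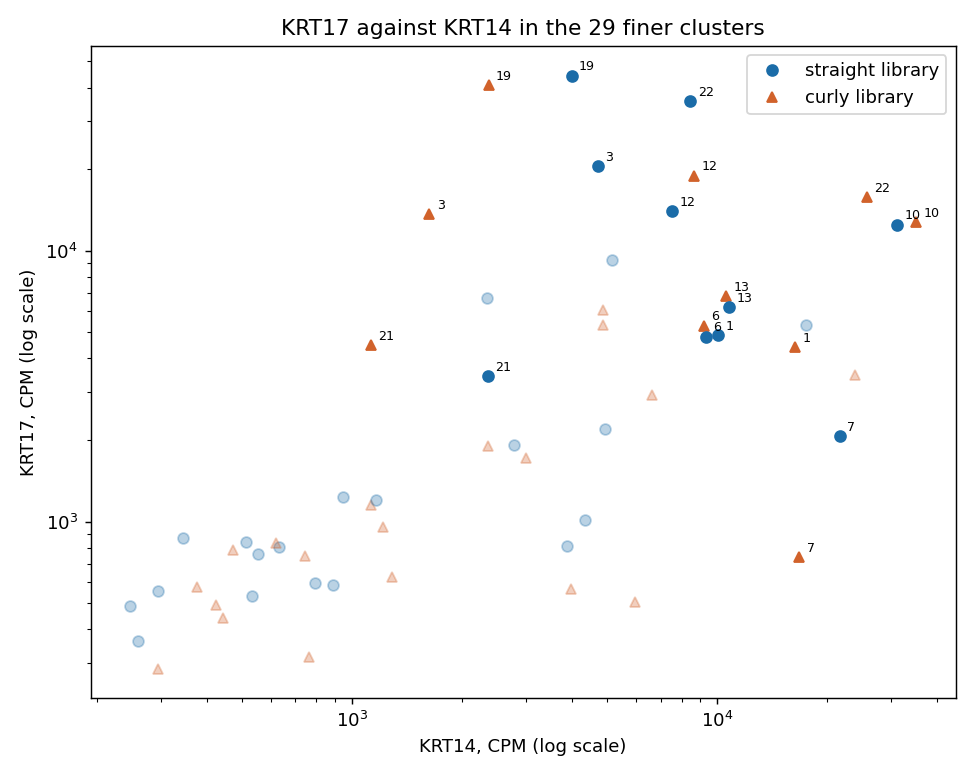
KRT17 level against KRT14 level, both in CPM on log scales, in the 29 finer clusters, with circles for the straight library and triangles for the curly library. Numbers mark the clusters 1 (basal IFE-like), 3 and 21 (suprabasal IFE-like), 6 and 13 (HFSC-like), 7, 12, 10 and 22 (unnamed) and 19 (ORS-like), and pale points are the other clusters. Cluster 19 has the most KRT17 at 44263 and 40866, and cluster 10 the most KRT14.

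Contrasts between named groups of cells were computed in each library. KRT5 in basal over suprabasal IFE-like cells had a log2 ratio of -0.05 in the straight library and 1.32 in the curly library (mean 0.64), and KRT14 had -0.20 and 1.20 (mean 0.50). The straight values pool the 2 suprabasal clusters, and KRT14 in straight cells was 4914 CPM in cluster 4 and 17304 in cluster 5, below and above the 8839 of basal cluster 2. In HFSC-like over basal IFE-like cells KRT15 had 0.32 and 0.63 (mean 0.48) and KRT17 0.23 and 0.32 (mean 0.27). HFSC-like cells were mostly cluster 6 in the straight library (574 of 804) and mostly cluster 8 in the curly library (532 of 877). The pooled values hide a difference between these clusters. KRT17 was 11288 and 12828 CPM in cluster 6 but 4735 and 5336 in cluster 8, against 8784 and 7266 in basal cluster 2. KRT15 in straight cells was 4915 in cluster 6 and 13070 in cluster 8, against 4903 in cluster 2. At the finer division, where the KRT14-rich group of cluster 5 is no longer named suprabasal, the mean contrasts were 1.21 for KRT5, 2.31 for KRT14 and 0.92 for KRT15. There KRT14 in straight cells was 10044 in basal IFE-like cells against 4722 and 2353 in the 2 suprabasal IFE-like clusters, and KRT5 was 10464 against 9770 and 1635.

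Between the wool types, 13 of 79 gene and cluster pairs differed by 2-fold or more, 6 higher and 7 lower in the curly library (16.5%). Over all genes and the same clusters the background was 6.74% (3.16% higher and 3.58% lower). The keratinocyte clusters with a 2-fold difference were suprabasal clusters 4 and 5 and the unnamed cluster 16. In cluster 4, KRT5 was at 12795 CPM in the straight library and 4921 in the curly library (log2 ratio -1.38), KRT14 at 4914 and 1960 (-1.33) and KRT15 at 501 and 203 (-1.30), while KRT17 was lower by less (-0.73). With the median gene of the cluster set to no change these 3 ratios were -1.13, -1.08 and -1.05. The share of all genes past 2-fold was 8.55% in cluster 4, 9.77% in cluster 5 and 12.7% in cluster 16. Cluster 5 had KRT15 at 2181 and 992 (-1.14, and -0.91 as a mean of the single cells' levels), with KRT5 at -0.77 and KRT14 at -0.51. In both suprabasal clusters all 4 keratins were lower in the curly library. Within cluster 5 this held at the finer division for KRT5, KRT14 and KRT15 but not for KRT17. KRT17 was 2069 and 739 CPM in the finer group with KRT1 and KRT10 (-1.48), and 3449 and 4473 in the SPINK7-led group (0.38).

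**Figure D5:**
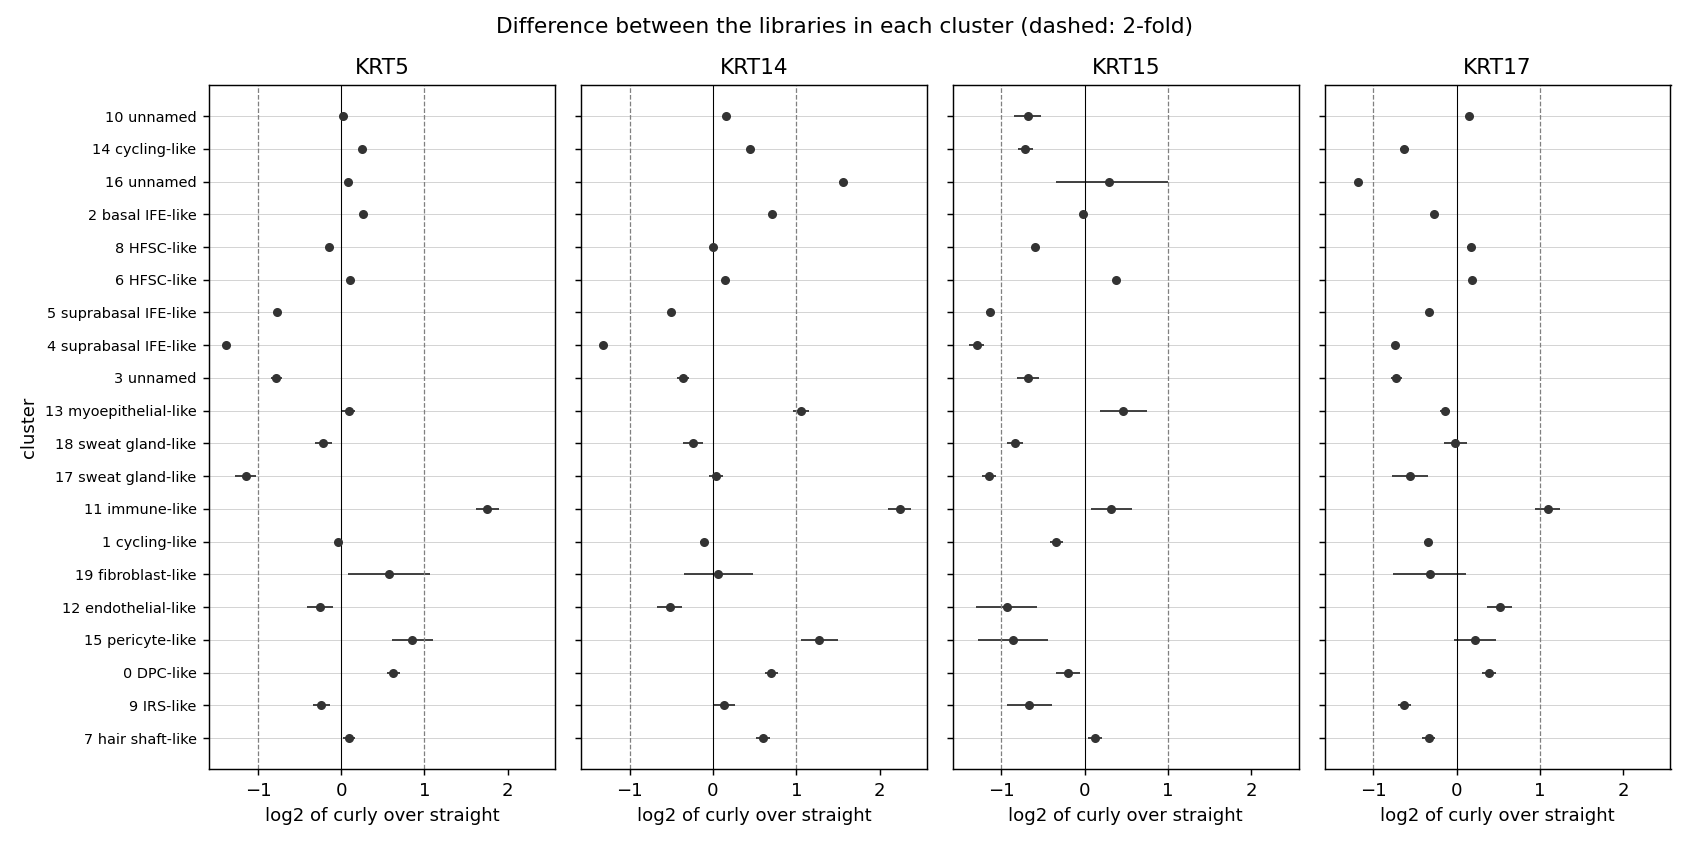
Log2 ratio of curly over straight for each keratin in the 20 clusters with at least 25 cells per library, where a pair needed at least 100 UMIs, with 95% counting intervals and dashed lines at 2-fold. In suprabasal clusters 4 and 5 all 4 keratins lie left of 0, and in basal IFE-like cluster 2 KRT14 lies right of 0 at 0.71.

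In the basal and stem-like clusters the libraries were closer. Basal IFE-like cluster 2 had KRT14 higher in the curly library (log2 ratio 0.71) and KRT5 slightly higher (0.27). KRT17 there was at -0.27 and KRT15 at -0.02, the latter turning to 0.15 with the median gene set to no change. In cluster 8 KRT15 was lower in the curly library (-0.60) and in cluster 6 it was higher (0.37). In cluster 10, KRT5, KRT14 and KRT17 were at 0.02, 0.15 and 0.15. None of these differences reached 2-fold, and none could be set against a spread between animals.

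In the summed UMIs of cluster 16, KRT14 and KRT17 differed in opposite directions. KRT14 was 8684 CPM in the straight library and 25695 in the curly library (log2 ratio 1.57), and KRT17 was 35893 and 15765 (-1.19), with KRT5 at 14032 and 14846. In the 29 straight and 133 curly cells with at least 50 type I UMIs, the median KRT17 share was 98.0% in straight and 71.6% in curly cells, and KRT17 gave over 50% of type I UMIs in 86.2% and 55.6% of them. KRT14 gave over 50% in the other 13.8% and 44.4%. Only 38 straight cells stood behind these values, with a median depth of 6805.5 UMIs against 3688 in the 189 curly cells. As a mean of the single cells' levels the log2 ratios were 0.88 and -0.91, and with likely doublets removed 0.98 and -1.46.

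The other 2-fold differences lay outside the keratinocyte clusters. Myoepithelial-like cluster 13 had KRT14 at 2336 in the straight library and 4854 in the curly library (log2 ratio 1.05, on 49 and 254 cells, and 0.93 with the median gene set to no change). Sweat gland-like cluster 17 had KRT15 at 6815 and 3074 (-1.15) and KRT5 at 3156 and 1428 (-1.14, and -0.89 as a mean of single cells). Immune-like cluster 11 had KRT5, KRT14 and KRT17 higher in the curly library (1.75, 2.24 and 1.09). Its curly levels of 2607, 2988 and 1717 were above those of the other 4 non-epithelial clusters, and as a mean of the single cells' levels the KRT17 ratio was 0.62. Pericyte-like cluster 15 had KRT14 higher (1.28, and 0.64 with likely doublets removed), at 1295 the highest curly value of those 4 clusters. By named class instead of cluster, 11 of 51 pairs passed 2-fold (21.6%, against 6.94% of all genes), 5 higher and 6 lower (3.12% and 3.82% of all genes). Of these 11, 3 belonged to the cycling-like class, which joins cluster 1 (KRT14 at 618 and 572) with the epidermal cluster 14, and neither cluster passed 2-fold alone for any of the 4. Cluster 14 gave 174 of 749 cycling-like cells in the straight library and 88 of 1070 in the curly library.

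Companion genes of the basal layer were read from lists of anchoring, desmosome, regulator and other keratin genes. In basal IFE-like cells 0 of 9 measured anchoring genes (hemidesmosome and basement membrane genes such as COL17A1 and ITGB4), 0 of 7 desmosome genes and 0 of 6 regulators (TP63 and others) differed by 2-fold between the libraries (5.58% of all genes did), with medians of 0.03, 0.16 and -0.27 on the log2 scale against -0.17 over all genes. Of 11 other keratins, 8 were 2-fold higher in curly basal cells, with a median of 1.27. Members of the same list were 2-fold higher in curly cells of other classes too. They were 7 of 9 measured in dermal papilla-like cells (median 1.53), 5 of 6 in endothelial-like cells (1.46) and 4 of 6 in pericyte-like cells (1.47). Among HFSC-like cells they were 5 of 11 (0.86) and among suprabasal IFE-like cells 5 of 12 (0.88, with KRT6A lower). Myoepithelial-like cells had 4 of 10 (0.82) and immune-like cells 3 of 6 (0.82). Lower counts were 1 of 10 in hair shaft-like cells (0.67), 1 of 9 in IRS-like cells (0.36, with KRT19 lower), 1 of 11 in sweat gland-like cells (-0.05, with KRT1 lower) and 0 of 13 in cycling-like cells (0.24). Over all genes of the named classes together, 3.12% were 2-fold higher in the curly library. In basal cells they include the suprabasal keratins KRT1 (174 and 492 CPM) and KRT10 (391 and 1226), the inner root sheath keratins KRT71 (68.4 and 165), KRT25 (77.3 and 201) and KRT27 (24.5 and 80.1), and KRT6A (32.3 and 76.7). KRT71, KRT25 and KRT27 mark another cell type, and IRS-like cells were 2.22% of straight and 6.04% of curly cells. The part of RNA from other cells in the keratin levels of cluster 2 was not tested.

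In suprabasal IFE-like cells, where KRT5 and KRT15 were lower in the curly library, 2 of 9 anchoring genes were 2-fold lower (ITGA6, a hemidesmosome integrin, and DST, a plakin) and 0 were higher, where 8.75% of all genes passed 2-fold, with a list median of -0.73 against -0.19 over all genes. Among 7 desmosome genes DSG3 and DSC2 were 2-fold lower and the median was -0.08. Of 7 regulators 0 passed 2-fold, with a median of -0.54. In HFSC-like cells, where 8.02% of all genes passed 2-fold, 0 of 9 anchoring genes and 0 of 7 desmosome genes did, and of 6 regulators TFAP2C and KLF5 were lower in the curly library. Within cluster 4, 4 of 7 measured anchoring genes (median -1.21), 2 of 7 desmosome genes (-0.42) and 1 of 7 regulators (-0.42) were 2-fold lower in the curly library and 0 of these were 2-fold higher. Over all genes of cluster 4, 8.55% passed 2-fold in either direction and the median was -0.25. Of 9 other keratins measured in cluster 4, 3 were 2-fold higher and 1 (KRT6A) was 2-fold lower, with a median of 0.83. ITGA6 there stood at 39.4 and 15.8 CPM, COL17A1 at 73.2 and 31.6, ITGB4 at 21.4 and 7.8 and TP63, the master regulator of stratified epithelia, at 46.2 and 21.3. With DST, DSG3 and DSC2 these are the members of the anchoring, desmosome and regulator lists that were 2-fold lower in cluster 4.

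Likeness of patterns was described by Pearson's r of log2(CPM + 1) over 44 profiles (22 clusters in 2 libraries, which share library, depth and free RNA). KRT5 and KRT14 were most alike (0.95), followed by KRT5 and KRT17 (0.88) and KRT14 and KRT17 (0.76). KRT15 stood apart, with 0.52 to KRT5, 0.50 to KRT14 and 0.26 to KRT17. Among 13195 other genes, the closest to KRT5 after KRT14 and KRT17 were LOC101114082 (0.86), PHYHIP (0.84) and IL20RB (0.83). The closest to KRT14 after KRT5 were ANXA2 (0.84), BARX2 (0.81), LGALS7 (0.76) and IL20RB (0.76). KRT17 was closest to KRT5, LOC101114082 (0.86), PHYHIP (0.84), ADGRL3 (0.80) and DUOXA1 (0.80).

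KRT15 had a different circle of genes: FIBIN (0.84), TNS4 (0.81), TP73 (0.80), FAT2 (0.79) and COL17A1 (0.77). Of the anchoring genes, COL17A1 (collagen XVII of the hemidesmosome), ITGA3 (0.75) and ITGB4 (0.73) followed KRT15 more closely than they followed KRT5 (0.51, 0.39 and 0.54). Desmosome genes had the opposite order, with PERP at 0.79 to KRT5 and 0.32 to KRT15 and DSP, the desmoplakin gene, at 0.75 and 0.19. TP63 was at 0.70 to KRT5 and 0.60 to KRT15. These r values describe the 44 profiles and were not tested.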

How the data were processed

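Single-cell RNA-seq (10x Genomics) of 2 libraries was used, 1 per wool type. Per the paper the authors aligned reads to Oar_rambouillet_v1.0 and counted UMIs with Cell Ranger (version 3.0.2 in the submitters' processing notes, another version in the paper), filtered cells with Seurat. The deposited values were found, from the file, to be natural log values, ln(1 + UMIs per 10000 of a cell). Each deposited natural log value was turned into UMIs with the step of its cell, and 100.0% of the 28552149 values above 0 came out whole within 0.01. The table holds fewer barcodes than the study states for its filtered cells, and 0 columns of no sample.

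Cells were integrated and clustered with Seurat 5.3.0 in R 4.3.3 (2000 variable genes without the 4 keratins, 30 dimensions, resolution 0.3). A cluster was named by its mean log2 marker ratio to the other cells (CPM + 5) when the ratio was at least 1, a limit lowered after seeing the data, with at least 3 markers in 10% of its cells. Cells were not removed as doublets. Scrublet's own threshold (scanpy 1.11.5) marked 0.43% of the cells and did not work, so the top 6% (842 cells) were removed as an alternative. Levels are summed UMIs per 1000000 UMIs (CPM), with exact Poisson or binomial intervals of 95%. A pair needed at least 25 cells in each library and 100 UMIs. No test was possible with 1 library per wool type. The ratio step was tested on simulated data. Named genes are the 4 keratins, their 5 most alike genes and gene lists. The members, the lists and the choice of comparisons were made with earlier results of these data known. Clusters 10 and 16, the shared barcodes and cluster 3 were left out as alternatives chosen after seeing the data. No sequences were used here.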

Additional observations from a re-analysis of the deposited data

Results flagged for a closer look

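KRT5, KRT14 and KRT17 were looked at again because each differed between the libraries by 2-fold or more in opposite directions in different clusters. KRT5 had a log2 ratio of curly over straight of 1.75 in immune-like cluster 11 and -1.38 in suprabasal IFE-like cluster 4. KRT14 had 2.24 in cluster 11 and -1.33 in cluster 4. KRT17 had 1.09 in cluster 11 and -1.19 in the unnamed cluster 16. The differences between clusters were not tested, since each wool type is 1 library. The levels of cluster 11 rest on 300 straight and 91 curly cells. They were 773 and 2607 CPM for KRT5, 632 and 2988 for KRT14 and 806 and 1717 for KRT17. With likely doublets removed the ratios in cluster 11 were 2.50, 3.14 and 1.38, and as means of single cells 1.05, 1.61 and 0.62, the last below 2-fold. In cluster 4, KRT5 and KRT14 stayed lower by more than 2-fold under each of the 5 cell and scaling alternatives run on clusters.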

How the results depend on the processing

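No paired analysis was possible because each wool type is 1 library, and no replicate could be left out. Without integration 2 HFSC-like clusters each held mostly 1 library (2148 straight and 272 curly cells, and 6 and 1303), no cluster was named basal IFE-like and the 4 class contrasts gave no value. Among the 13 cluster pairs past 2-fold, 11 stayed past 2-fold in the same direction with doublets removed, 8 as means of single cells, 13 with keratins left out of the totals and 12 with the median gene set to no change. With at least 1500 genes per cell 8 pairs could be computed and all 8 stayed. The cause of each change below was not tested unless fewer cells or another cluster name is the alternative itself.

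Library-wide log2 ratios for KRT5, KRT14, KRT15 and KRT17 were -0.32, 0.21, -0.70 and -0.44 with at least 1500 genes per cell, -0.11, 0.27, -0.27 and -0.25 as means of single cells, and -0.10, 0.41, -0.45 and -0.23 with the median gene set to no change. With doublets removed KRT5 was -0.31, KRT14 0.21 and KRT17 -0.46, and without shared barcodes -0.30, 0.22 and -0.42. Without clusters 10 and 16 they were -0.68, -0.41, -0.54 and -0.68, so KRT14 reversed.

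The KRT5 contrast of basal over suprabasal cells was 0.68 with at least 1500 genes, 0.68 without doublets, 0.42 as means of cells, 0.60 with keratins out of the totals, 1.21 at resolution 0.8 and 0.65 with the 4 keratins used for clustering. That of KRT14 was 0.53, 0.54, 0.22, 0.47 and 2.31 in the first 5 of these. KRT15 in HFSC-like over basal cells was 0.53 as means of cells, 0.92 at resolution 0.8 and 0.37 with the keratins used for clustering, and KRT17 was 0.16, 0.32 and 0.14. The class pairs past 2-fold fell from 11 to 6 with the median gene set to no change and lay between 9 and 12 otherwise. The KRT5 share of the straight library was 32.4% as means of cells and 31.4% at resolution 0.8. That of the curly library was 29.8% with at least 1500 genes, 30.8% as means, 29.5% at resolution 0.8 and 29.6% without integration.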

Other observations

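The sebaceous-like cluster 21, left out of the comparison of wool types because it held 19 curly cells against 52 straight cells, expressed KRT5 and KRT14 above the non-epithelial background. KRT14 stood at 4355 CPM in straight cells and 5975 in curly cells, and KRT5 at 2508 and 3069. KRT15 stood at 2131 and 656 and KRT17 at 1015 and 504. KRT14 made up 58.1% and 83.7% of the type I UMIs there.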
